A study of Mus musculus with 4 samples.

Results

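The immediate early and NF-kB response genes were followed as a set of 39 genes, found by their symbols among the 27998 genes of a single-cell RNA sequencing study of mouse nasal mucosa. They were set out as 2 arms, an immediate early arm of 28 genes and an NF-kB arm of 11 genes. The cells came from C57BL/6 mice of 8 weeks and were enriched for CD45+ cells, CD45 being the surface protein that marks leukocytes. Each of 4 groups was 1 library. Vehicle and Ribavirin are the groups without allergen, and Vehicle-OVA and Ribavirin-OVA the groups given ovalbumin (OVA), an egg white protein injected with alum and then dripped into the nose to produce allergic rhinitis. Ribavirin, an antiviral nucleoside analogue, took the place of vehicle in the groups named for it. The sources used here do not give the number of mice behind a library, and with no replicate library there was no test between groups, so library and treatment cannot be told apart and every interval covers counting error only.

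Immediate early genes are transcribed within minutes of a stimulus from factors already present in the cell. They encode AP-1 subunits (Fos, Fosb, Jun, Junb, Jund, Atf3, Maff), the zinc finger factors of the Egr and Klf families, the Nr4a nuclear receptors, and proteins that end the response, among them the MAP kinase phosphatases of the Dusp family and Zfp36 and Zfp36l1, which bind AU-rich mRNAs and hasten their decay. NF-kB is a dimer drawn from the products of Rela, Rel, Relb, Nfkb1 and Nfkb2, of which Rela is not among the members. It is held inactive by IkB proteins such as that of Nfkbia, and among its best known targets are Nfkbia itself and Tnfaip3, the ubiquitin editing enzyme A20, so that its targets include its own inhibitors. Neutrophils and macrophages use both systems in their response to microbes and cytokines, and the enzymatic and mechanical handling of a tissue is known to induce immediate early genes in the isolated cells.

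The promoters of the members show the sequence side of the 2 arms, and a few are printed because NF-kB, serum response factor and CREB read such elements. Of the 39 members, 33 had a RefSeq promoter entry (build GRCm38.p6, the patch release of the mm10 build that the submitters' processing notes name), 25 of the immediate early and 8 of the NF-kB arm. A kappaB site, searched on both strands in the 250 bases before each start, was matched in 10 of the 33, which was 6 of the 8 NF-kB genes and 4 of the 25 immediate early genes (Fos, Fosb, Ier3 and Maff), and in 3.90% of all 32817 promoter windows. A CArG box, the serum response element core, was matched in Egr2, Dusp5 and Zfp36 and in 1.47% of all windows. The CRE TGACGTCA was matched in Maff, Btg2, Dusp1 and Nfkbid against 1.55% of all windows, and the AP-1 site TGANTCA in Zfp36l1, Nfkb2, Nfkbie and Tnfaip3 against 6.75%. A member counted as matched when any of its windows matched, and some members had several windows. The shares of all windows count each window by itself, so members and shares are not counted alike. The string of the CRE does not contain that of the AP-1 site, the kappaB site and the CArG box were searched by their usual consensus, and a match is a string in a window, with nothing known here of binding.

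First stand 5 NF-kB genes and Ier3 and Maff, immediate early genes, with each kappaB match in capitals (a pair of them in Nfkbid), 5′ to 3′ on the strand of the gene. In Rel the capitals hold 2 overlapping matches.
Nfkbia, minus strand, chr12:55492648-55492727, outside annotated genes: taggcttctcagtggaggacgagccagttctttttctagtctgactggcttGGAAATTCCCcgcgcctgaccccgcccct
Rel, minus strand, chr11:23771017-23771096, outside annotated genes: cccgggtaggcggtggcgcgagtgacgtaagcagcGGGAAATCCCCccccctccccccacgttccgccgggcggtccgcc
Nfkbie, plus strand, chr17:45555559-45555638, outside annotated genes: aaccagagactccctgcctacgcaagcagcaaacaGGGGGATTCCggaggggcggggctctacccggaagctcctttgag
Nfkbid, plus strand, chr7:30422167-30422246, within the annotated gene and outside its exons: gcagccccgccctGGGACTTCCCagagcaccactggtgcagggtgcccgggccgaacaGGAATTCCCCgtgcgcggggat
Tnfaip3, minus strand, chr10:19015516-19015545, within the annotated gene: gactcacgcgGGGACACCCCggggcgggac
Ier3, plus strand, chr17:35821586-35821665, outside annotated genes: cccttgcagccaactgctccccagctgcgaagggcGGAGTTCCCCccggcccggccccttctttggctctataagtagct
Maff, plus strand, chr15:79348297-79348376, within the annotated gene and outside its exons: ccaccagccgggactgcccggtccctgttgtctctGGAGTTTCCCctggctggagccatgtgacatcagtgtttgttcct

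Then stand Egr2 and Dusp5 with the CArG box (a pair of adjoining ones in Dusp5) and Dusp1 with the CRE in capitals, since these members are described at length for macrophage- and neutrophil-like cells.
Egr2, plus strand, chr10:67537459-67537538, within the annotated gene and outside its exons: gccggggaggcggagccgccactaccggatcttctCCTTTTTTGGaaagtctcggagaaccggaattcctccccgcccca
Dusp5, plus strand, chr19:53529058-53529087, in an exon of a neighbouring transcript: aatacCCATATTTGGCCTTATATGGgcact
Dusp1, minus strand, chr17:26508572-26508651, within the annotated gene: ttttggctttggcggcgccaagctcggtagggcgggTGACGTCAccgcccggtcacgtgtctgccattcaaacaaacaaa

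The libraries held between 10311 and 28277 deposited cells and between 91742940 and 171873110 unique molecular identifiers (UMIs, single counted transcripts), and 72320 cells remained after filters on UMIs, genes and mitochondrial share. Cells were put in a class when they held at least 3 of its 8 markers and at least 2 more than of any other class, and between 18.5% and 21.9% of kept cells stayed unassigned. The 10 leading genes of each of the 8 classes used held 4 to 7 of its own markers and 0 of another class. The class rule itself favours this, so it is no separate check of the classes. Neutrophil-like cells made up 28.2% of kept cells in Vehicle, 61.2% in Vehicle-OVA, 33.9% in Ribavirin and 28.5% in Ribavirin-OVA. Library pairs shared between 57 and 174 cell barcodes, and 1066 of the kept cells carried a barcode seen in 2 or more libraries. Markers of neutrophils reached 148.6 to 1157 CPM (the UMIs of a gene per 1000000 UMIs of its class and library) when summed within the 7 other classes, against 35598 to 46632 in the neutrophil-like cells themselves.

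The 39 members together took 3.79% of all UMIs of neutrophil-like cells in Vehicle, 6.31% in Vehicle-OVA, 4.19% in Ribavirin and 5.56% in Ribavirin-OVA. In every library this was the largest share among the 8 classes, and macrophage-like (2.13% to 2.63%) and monocyte-like cells (2.12% to 2.99%) followed. Plasma cell-like and plasmacytoid dendritic cell-like (pDC-like) cells held the smallest shares, at 0.982% to 1.38% and 0.888% to 1.10%. Egr1, Zfp36, Klf2, Nfkbia, Nfkbiz and Tnf, the last encoding tumour necrosis factor, had their highest CPM in neutrophil-like cells in all 4 libraries, although Klf2 in Vehicle stood at 945 CPM there and 930 CPM in NK-like cells. Nr4a1 and Atf3 were highest in monocyte-like cells in all 4 libraries. Tnfaip3 was highest in T cell-like cells in 3 libraries and in neutrophil-like cells in Vehicle-OVA, at 2546 CPM against 1359 CPM in T cell-like cells. CPM are not divided by transcript length, so they are set side by side here only for 1 gene at a time.

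**Figure D1:**
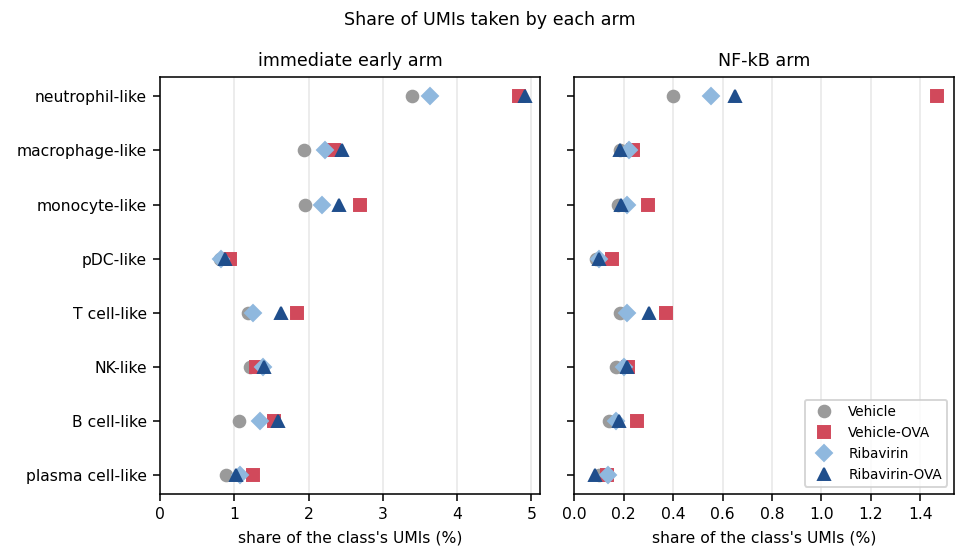
Share of all UMIs of a class (percent) taken by the immediate early arm and by the NF-kB arm in 8 cell classes, with 1 point per library. The NF-kB share of neutrophil-like cells was 0.401% in Vehicle, 1.47% in Vehicle-OVA, 0.553% in Ribavirin and 0.652% in Ribavirin-OVA, and the immediate early share was highest in both OVA libraries (4.84% and 4.91%).

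In neutrophil-like cells, OVA under vehicle went with a higher level of the whole NF-kB arm. All 11 of its genes had their highest CPM in Vehicle-OVA, a library in which 10.9% of all 12365 genes tested in these cells had their highest level. Among them were genes of inhibitors of the pathway. Nfkbia, which encodes the inhibitor IkB alpha, read 2024 CPM in Vehicle, 6236 in Vehicle-OVA, 2803 in Ribavirin and 2958 in Ribavirin-OVA, a ratio of Vehicle-OVA over Vehicle of 3.08 (95% interval 3.05 to 3.11). Tnfaip3 read 339, 2546, 517 and 805 CPM in the same order of libraries, a ratio of 7.51 (7.33 to 7.68). Nfkbiz, the nuclear IkB protein that helps to switch on secondary response genes, read 637, 3181, 1128 and 1360 CPM, a ratio of 4.99 (4.91 to 5.08). In each of these 3 genes Vehicle-OVA lay apart from the other 3 libraries, and Vehicle was the lowest.

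The 4 NF-kB subunit genes among the members were higher as well. Nfkb1, the gene of p105 and p50, read 114 CPM in Vehicle, 897 in Vehicle-OVA, 161 in Ribavirin and 242 in Ribavirin-OVA, a ratio of 7.87 (7.56 to 8.20). Rel, the subunit c-Rel of haematopoietic cells, read 185, 458, 201 and 231 CPM, a ratio of 2.47 (2.39 to 2.56). Nfkb2, the gene of p100 and p52 of the noncanonical pathway, read 42.3, 139.9, 53.9 and 38.6 CPM, a ratio of 3.30 (3.08 to 3.54). Its partner Relb was lower in level and read 45.3, 85.0, 47.3 and 33.4 CPM, a ratio of 1.88 (1.75 to 2.02). Tnf, a product and an inducer of the pathway, read 147, 309, 153 and 238 CPM, a ratio of 2.10 (2.02 to 2.18). The remaining IkB family genes moved less, with Nfkbid at a ratio of 2.00 (1.94 to 2.06), Nfkbie at 1.70 (1.61 to 1.80) and Bcl3 at 1.27 (1.22 to 1.33). On the scale of log2(CPM + 1), the scale of every count past 2-fold here, 7 of 11 NF-kB genes were at least 2-fold higher and none lower, against 6.29% of all genes higher and 22.7% lower.

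**Figure D2:**
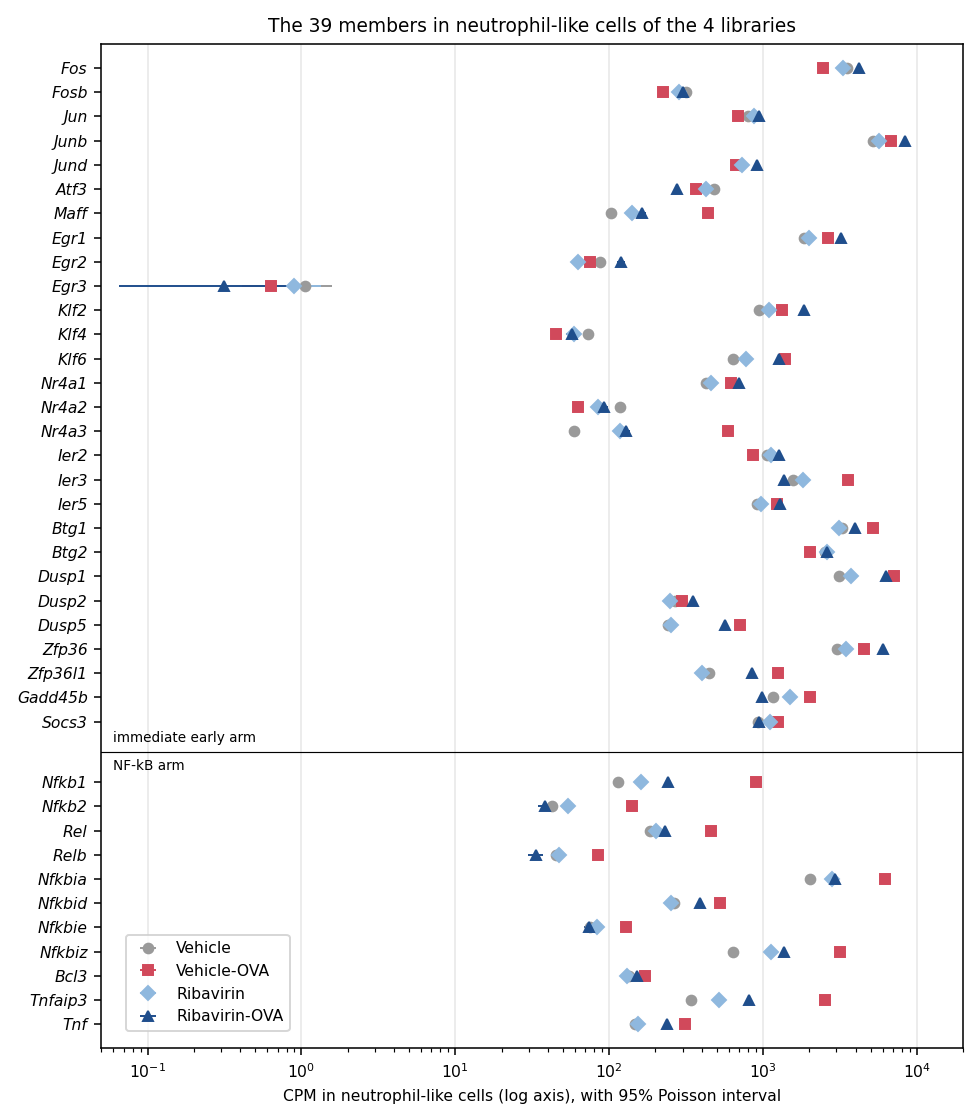
Level of each of the 39 members in neutrophil-like cells (CPM, log axis) in the 4 libraries, with the 95% Poisson interval of the count, immediate early arm above and NF-kB arm below. The Vehicle-OVA point is the rightmost for all 11 NF-kB genes, against 10.9% of all 12365 genes tested. The Ribavirin-OVA point is the rightmost for 13 of the 28 immediate early genes, near the 45.5% of all genes.

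The immediate early arm was divided under the same comparison, with 7 of 28 genes at least 2-fold higher, none at least 2-fold lower and 17 above a ratio of 1. The median log2 ratio of the arm was 0.43, that of the NF-kB arm 1.30 and that of all genes tested -0.46. Median-of-ratios scaling, which sets the last near 0, raised the medians of the arms to 1.04 and 1.90 and the count of members past 2-fold from 14 to 25, so directions near a ratio of 1 rest on the scaling. That scaling raised the ratios of all genes, and the share of all genes past 2-fold was not counted under it. Of the AP-1 subunits only Maff, a small Maf protein, was past 2-fold, at 102 CPM in Vehicle, 439 in Vehicle-OVA, 142 in Ribavirin and 164.5 in Ribavirin-OVA. Fos read 3502, 2456, 3288 and 4189 CPM, a ratio of 0.701 (0.695 to 0.708), and Jun read 804, 688, 872 and 941 CPM, a ratio of 0.856 (0.840 to 0.873), and both lay above 1 under median-of-ratios scaling (log2 0.09 and 0.38). In CPM, Fos and Jun were thus lowest in the library in which every NF-kB gene was highest. Atf3, a stress induced repressor of inflammatory genes, read 478, 367, 425 and 274 CPM, a ratio of 0.767 (0.748 to 0.786) that also turned above 1 under that scaling (log2 0.22).

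Genes that end the response were the immediate early group with the highest median log2 ratio, 1.18 over 5 phosphatases and mRNA decay factors, with 3 of 5 past 2-fold. Dusp1, a nuclear phosphatase of p38 and JNK, read 3125 CPM in Vehicle, 7095 in Vehicle-OVA, 3728 in Ribavirin and 6288 in Ribavirin-OVA, a ratio of 2.27 (2.25 to 2.29). Dusp5, a phosphatase of ERK, read 240.3, 705, 253 and 566 CPM, a ratio of 2.93 (2.85 to 3.02). Zfp36l1 read 443, 1257, 401 and 847 CPM, a ratio of 2.84 (2.78 to 2.90). In these 3 genes both OVA libraries were above both libraries without OVA, as in 22 of the 39 members, against 19.6% of all genes, and 3 members were below, against 26.3%. Zfp36, the gene of tristetraprolin, did the same at 3032, 4522, 3470 and 5978 CPM, but with a ratio of 1.49 (1.48 to 1.50) under vehicle and with Ribavirin-OVA above Vehicle-OVA. Dusp2 read 266, 297, 249.5 and 352 CPM.

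The Nr4a receptors split within their family. Nr4a3 read 59.4 CPM in Vehicle, 596 in Vehicle-OVA, 118 in Ribavirin and 128 in Ribavirin-OVA, a ratio of 10.0 (9.49 to 10.6) and the highest of the 39. Nr4a1 read 426, 616, 457 and 703 CPM, a ratio of 1.45 (1.41 to 1.48), and Nr4a2 read 117, 62.3, 85.1 and 91.9 CPM, a ratio of 0.532 (0.503 to 0.562). The family thus held both the highest and the lowest ratio of the members in these cells. Among the Ier and Btg genes, Ier3, a target of NF-kB that acts on cell survival, read 1577, 3550, 1829 and 1379 CPM, a ratio of 2.25 (2.22 to 2.28), and was lowest in Ribavirin-OVA. Btg1, an antiproliferative gene, had a ratio of 1.61 (1.59 to 1.62), Ier5 of 1.36, Ier2 of 0.821 and Btg2 of 0.788.

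Egr1, Klf2 and Klf6 were higher in both OVA libraries. Egr1 read 1858 CPM in Vehicle, 2634 in Vehicle-OVA, 1977 in Ribavirin and 3220 in Ribavirin-OVA, and Klf2, a factor that restrains myeloid activation, read 945, 1325, 1093 and 1847 CPM. Klf6 read 635, 1396, 774 and 1261 CPM, a ratio of 2.20 (2.16 to 2.24). Their relatives did not share this order, with Egr2 at 87.6, 75.1, 63.1 and 119 CPM, Klf4 at 72.3, 44.9, 58.9 and 57.4 CPM, and Egr3 at or near 1 CPM in every library. The feedback genes Gadd45b and Socs3, the latter an inhibitor of cytokine receptors, were highest in Vehicle-OVA at 2029 and 1246 CPM and read 989 and 940.3 CPM in Ribavirin-OVA. Maff, Ier3, Klf6, Nr4a3, Nfkb1 and Nfkb2 were chosen for this detail after their values were seen.

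Under ribavirin, OVA went with little of the NF-kB difference in neutrophil-like cells. Of the 11 NF-kB genes 0 were at least 2-fold apart between Ribavirin-OVA and Ribavirin, and 2 of 28 immediate early genes, Dusp5 and Zfp36l1, were at least 2-fold higher, against 7.4% of all genes higher and 3.41% lower. Nfkbia had a ratio of 1.06 (1.04 to 1.07), Nfkbiz of 1.21 (1.18 to 1.23), Tnfaip3 of 1.56 (1.51 to 1.60) and Nfkb1 of 1.50 (1.42 to 1.58), and the first 2 of these fell below 1 under median-of-ratios scaling. The medians of log2 ratios were 0.35 for the immediate early arm, 0.21 for the NF-kB arm and 0.26 for all genes, and that of the NF-kB arm turned to -0.078 under median-of-ratios scaling. Dusp5 had a ratio of 2.23 (2.15 to 2.31) and Zfp36l1 of 2.11 (2.05 to 2.17), so these 2 were past 2-fold in both OVA pairs, against 2.02% of all genes (under ribavirin 0 members were under median-of-ratios scaling), and 0 members were 2-fold lower in both, against 2.26%. Fos, by contrast with its ratio under vehicle, stood at 1.27 (1.26 to 1.29), Egr2 at 1.89 (1.75 to 2.04) and Egr1 at 1.63 (1.61 to 1.65).

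Set side by side, the OVA libraries differed in the NF-kB arm of neutrophil-like cells. Ribavirin-OVA over Vehicle-OVA gave a median log2 ratio of -1.08 for the NF-kB genes, 0.22 for the immediate early genes and 0.59 for all genes, and 0 of 11 NF-kB genes were above a ratio of 1. At least 2-fold lower were 6 NF-kB and 4 immediate early genes and at least 2-fold higher none, against 2.35% of all genes lower and 16.3% higher. The ratios were 0.215 for Nr4a3, 0.269 for Nfkb1, 0.316 for Tnfaip3, 0.428 for Nfkbiz and 0.474 for Nfkbia, and 1.71 for Fos. Between both libraries without OVA, Ribavirin over Vehicle, no member was 2-fold apart, against 2.16% of all genes higher and 0.17% lower, although Nr4a3 at 1.98 and Nfkbiz at 1.77 came near. These pairs share libraries with both OVA pairs, so the 4 sets of ratios are not independent of each other.

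States of neutrophil-like cells moved with these values. Csf3, the gene of granulocyte colony stimulating factor, read 1.68 CPM in Vehicle, 333 in Vehicle-OVA, 12.1 in Ribavirin and 3.47 in Ribavirin-OVA, and a Csf3 UMI was found in 0.207%, 18.8%, 1.88% and 0.597% of the cells. Without these cells the median log2 ratio of the NF-kB arm under vehicle was 1.20, against 1.30 over all cells and 1.05 within them, the last resting on 15 cells of Vehicle. Siglecf, found on tissue neutrophils and on eosinophils, read 286, 61.6, 173 and 176 CPM, and the NF-kB median was 1.07 among cells with a Siglecf UMI and 1.28 among those without. Secondary granule transcripts of immature neutrophils were highest in Ribavirin-OVA, with Ngp at 866, 1215, 2149 and 6596 CPM and Ltf at 385, 531, 803 and 2769 CPM. Without cells holding 3 or more UMIs of these 2 genes, the NF-kB medians were 1.32 under vehicle and 0.29 under ribavirin, and within those cells, 139 of them in Vehicle, 1.74 and 0.77.

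The NF-kB difference was spread over most neutrophil-like cells rather than a few. When each cell was thinned to 1000 UMIs, with 157, 337, 0 and 132 shallower cells left out in the order of the libraries, the median cell held 3 NF-kB UMIs in Vehicle, 13 in Vehicle-OVA, 5 in Ribavirin and 5 in Ribavirin-OVA. At least 10 such UMIs were found in 13.9%, 63.7%, 25.6% and 29.0% of cells. The immediate early UMIs of the median cell were 36, 49, 41 and 55, so that arm was highest in Ribavirin-OVA and the NF-kB arm in Vehicle-OVA. At the low end, the first quartile stood at 6 NF-kB UMIs in Vehicle-OVA against 1 or 2 in the other libraries.

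**Figure D3:**
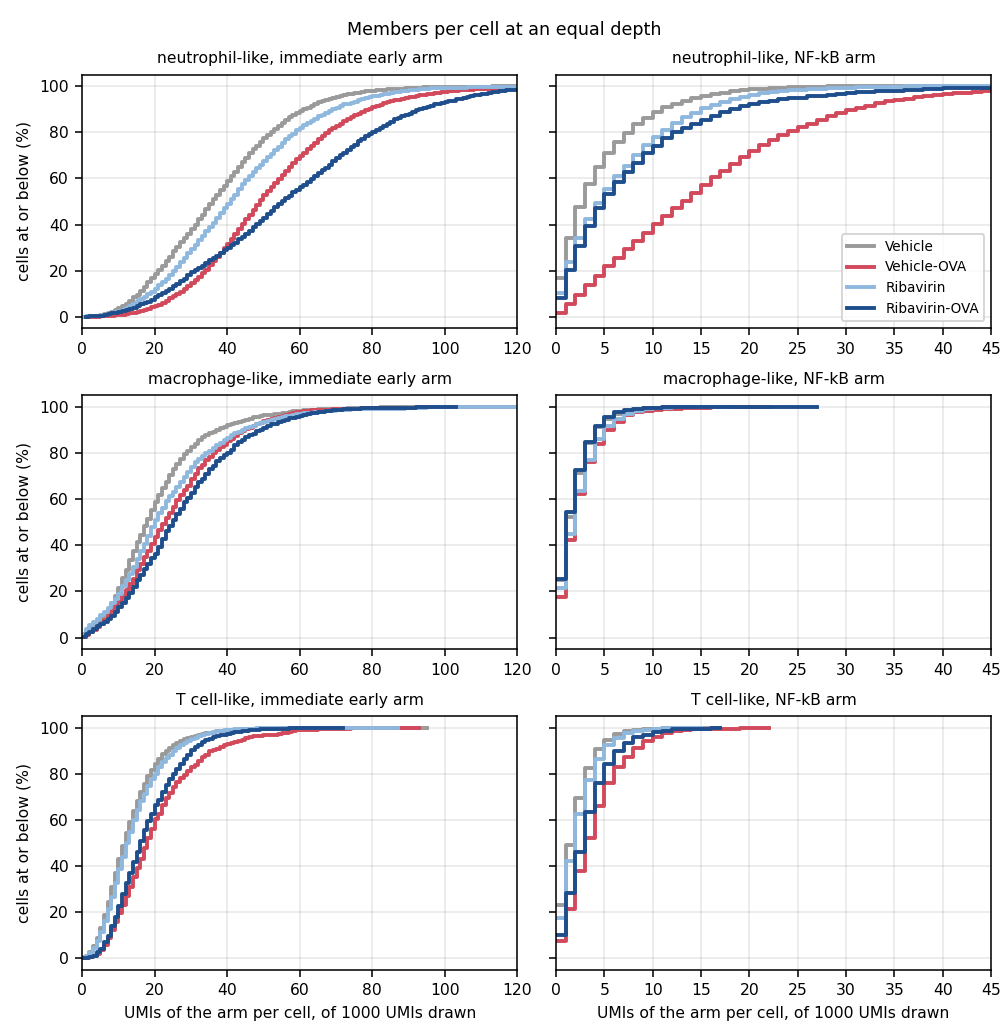
Cumulative share of cells (vertical axis, percent) against the UMIs of an arm per 1000 UMIs drawn from a cell (horizontal axis), for neutrophil-, macrophage- and T cell-like cells and both arms, with 1 line per library. In neutrophil-like cells the NF-kB line of Vehicle-OVA lies right of the other 3, with a median of 13 UMIs against 3 to 5.

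In macrophage-like cells Egr2, Dusp5 and Atf3 were past 2-fold in both OVA pairs, and Ier3 and Nfkb1 under vehicle only. Of 38 members tested (Egr3 had too few UMIs), 4 were at least 2-fold higher and 1 lower in Vehicle-OVA over Vehicle, against 8.32% of all genes higher and 3.75% lower, and 2 were higher and 1 lower in Ribavirin-OVA over Ribavirin, against 6.73% and 3.33%, and these counts lie near the shares of all genes. Egr2, a factor of alternatively activated macrophages, read 44.8 CPM in Vehicle, 148 in Vehicle-OVA, 47.8 in Ribavirin and 164 in Ribavirin-OVA, with ratios of 3.30 (3.09 to 3.51) and 3.44 (3.21 to 3.67). Dusp5 read 71.0, 227, 74.1 and 193 CPM, with ratios of 3.19 (3.03 to 3.36) and 2.61 (2.47 to 2.76). Atf3 went down in both, at 758, 363, 842 and 419 CPM, with ratios of 0.479 (0.465 to 0.492) and 0.497 (0.484 to 0.511). Past 2-fold in both pairs were thus Egr2 and Dusp5, against 4.65% of all genes, and Atf3 in the other direction, against 2.07%. For each of the 3 genes the OVA libraries did not overlap with the libraries without OVA, which held for 21 of 38 members in the higher direction, against 52% of all genes, and 8 in the lower, against 24.6%.

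Of the other AP-1 genes of macrophage-like cells, Jun and Fos were lower and Junb and Maff higher in both OVA libraries. Jun read 1011 CPM in Vehicle, 640 in Vehicle-OVA, 1339 in Ribavirin and 736 in Ribavirin-OVA, and Fos 3245, 2510, 3488 and 2587 CPM, whereas Junb read 2523, 3571, 2961 and 4030 CPM. Egr1 (896, 1489, 1062 and 1609 CPM), Dusp1 (1285, 2249, 1452 and 2199 CPM) and Zfp36 (1516, 2097, 1839 and 2238 CPM) were higher in both OVA libraries. The NF-kB feedback genes did not show the neutrophil pattern. Nfkbia read 580, 723, 690.2 and 488 CPM, Nfkbiz 387, 396, 498 and 298 CPM, Tnfaip3 224, 359, 262 and 265 CPM, and Rel between 188 and 209 CPM throughout. Tnf read 87.5, 92.1, 120.1 and 79.1 CPM. The ratio of Nfkbia was thus 1.25 (1.22 to 1.28) under vehicle and 0.707 (0.689 to 0.726) under ribavirin. Nfkb1, at 124, 252, 132 and 229 CPM, and Ier3, at 599, 1422, 714 and 1151 CPM, were higher in both.

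State genes of the macrophage-like class differed as well. Arg1, the arginase of alternative activation, read 8.92 CPM in Vehicle, 3659 in Vehicle-OVA, 48.0 in Ribavirin and 2879 in Ribavirin-OVA, and 3 or more UMIs of Arg1 or Ccl24 were found in 1.28%, 79.5%, 4.19% and 76.6% of the cells. Under vehicle the median log2 ratios of the immediate early and NF-kB arms were 0.48 and 0.36 over all these cells, 0.49 and 0.62 within the Arg1 or Ccl24 cells and 0.58 and 0.59 within the rest. Only 45 cells of Vehicle were in the first set. Neutrophil markers summed within macrophage-like cells read 340.0, 699, 450.1 and 339.0 CPM, highest in Vehicle-OVA, and their part in the NF-kB values was not tested. Monocyte markers summed there read 622, 4188, 568 and 4966 CPM in the order of the libraries, higher in both OVA libraries. The class's own 8 markers read 15748, 11081, 14569 and 11886 CPM, lower in both. The part of this shift in the ratios of the members, Egr2, Dusp5 and Atf3 included, was not tested.

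In T cell-like cells both arms were higher with OVA under vehicle, the immediate early arm at 1.19% of UMIs in Vehicle, 1.84% in Vehicle-OVA, 1.25% in Ribavirin and 1.62% in Ribavirin-OVA. At least 2-fold higher were 11 of 38 members in Vehicle-OVA over Vehicle and none were lower, against 13.3% of all genes higher and 4.35% lower, whereas in Ribavirin-OVA over Ribavirin 1 was higher and 1 lower, against 9.25% and 3.41%. Median log2 ratios were 0.87 and 0.62 for the arms under vehicle with 0.37 for all genes, and 0.32 and 0.19 under ribavirin with 0.36 for all genes, and under median-of-ratios scaling the latter 2 turned negative and the count under vehicle fell from 11 to 4. Nr4a2, a receptor induced by antigen receptor signalling, read 95.1, 231, 112 and 266 CPM in the usual order, with ratios of 2.43 (2.26 to 2.60) and 2.37 (2.24 to 2.52). It was the only member past 2-fold in both pairs, against 6.45% of all genes higher and 2.34% lower.

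Several other named genes of T cell-like cells were also higher in both OVA libraries. Tnfaip3 read 533 CPM in Vehicle, 1359 in Vehicle-OVA, 653 in Ribavirin and 1237 in Ribavirin-OVA, Nfkbiz 113, 369, 134 and 268 CPM, and Dusp5 423, 797, 388 and 775 CPM. Dusp1 read 382, 917, 398 and 660 CPM, Zfp36 226, 610, 320 and 468 CPM and Egr1 178, 482, 192 and 283 CPM. In each of these 6 genes both OVA libraries were above both libraries without OVA, as in 27 of 38 members, against 60.3% of all genes, and 4 members were below, against 21.4%. Nfkbia did not follow, at 598, 888, 686 and 596 CPM, nor did Fos at 570.1, 634, 568 and 454 CPM or Jun at 430, 426, 633 and 381 CPM. Gadd45b was the member 2-fold lower under ribavirin, at 642, 468, 751 and 329 CPM. Il17a, the cytokine gene of type 17 T cells, read 890.0 CPM in Vehicle, 600.4 in Vehicle-OVA, 833 in Ribavirin and 390.2 in Ribavirin-OVA, and the NF-kB median under vehicle was 1.14 in cells with an Il17a UMI and 0.61 in those without. Neutrophil markers summed within T cell-like cells read 259, 544, 302 and 223 CPM, and Ier3, which neutrophil-like cells hold at 3550 CPM in Vehicle-OVA, read 28.0, 113, 29.4 and 29.5 CPM here. The part of neutrophil transcripts in these values was not tested.

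**Figure D4:**
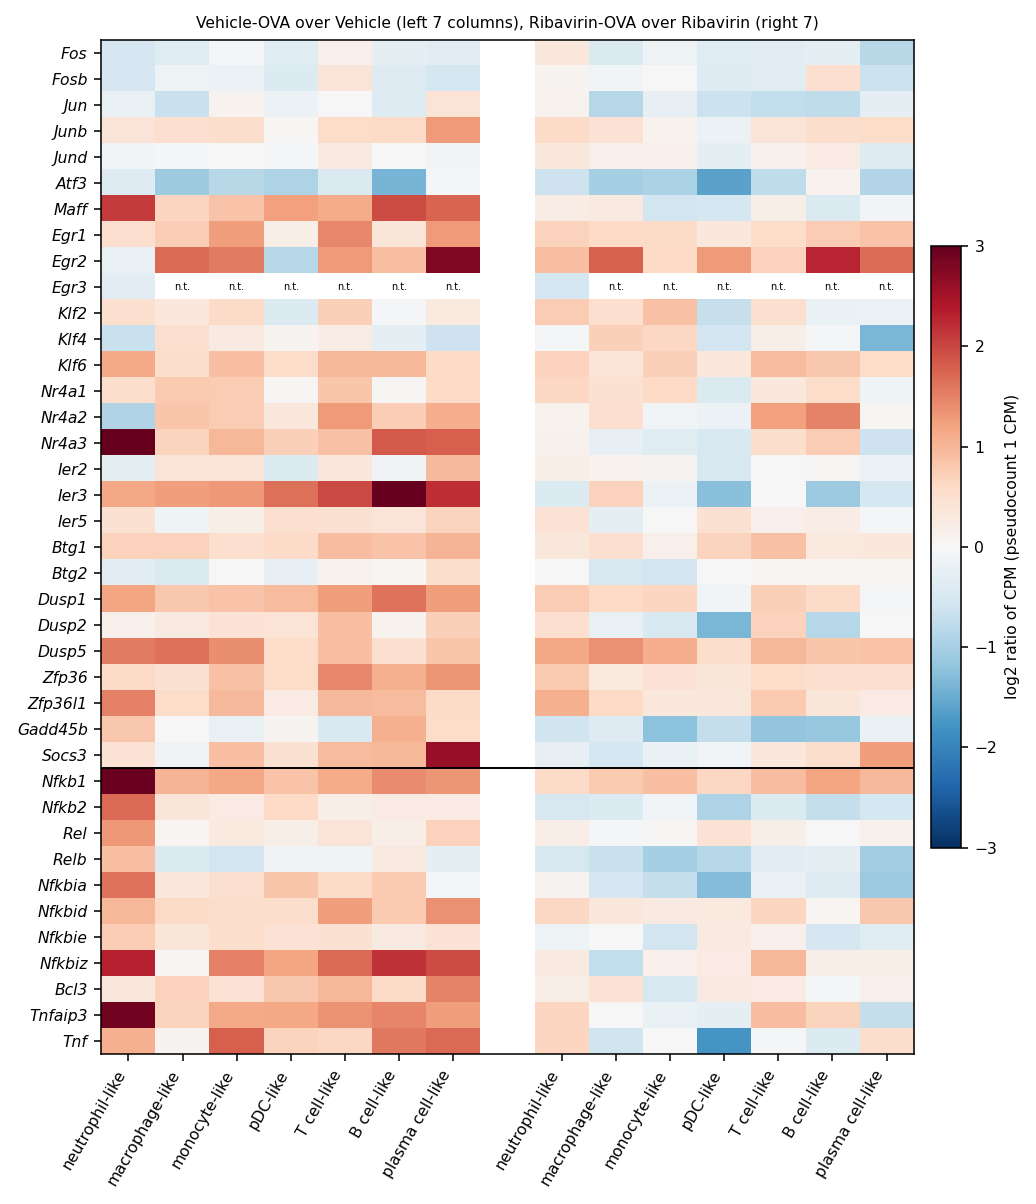
Log2 ratio of CPM of each member (rows) in 7 cell classes (columns) for Vehicle-OVA over Vehicle and Ribavirin-OVA over Ribavirin, with colours ending at 3 in either direction and n.t. for genes with under 50 UMIs over the 4 libraries. The NF-kB rows are mostly positive under vehicle in all 7 classes, with ratios of 7.87 for Nfkb1 and 7.51 for Tnfaip3 in neutrophil-like cells, and mixed under ribavirin.

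In the less frequent classes, more members were 2-fold higher with OVA under vehicle than under ribavirin. Monocyte-like cells (251 to 826 per library) had 8 of 38 at least 2-fold higher under vehicle, against 10.4% of all genes, and 1 higher and 2 lower under ribavirin, against 10.5% and 2.84%. Their Tnf read 28.4 CPM in Vehicle, 100.3 in Vehicle-OVA, 34.4 in Ribavirin and 34.0 in Ribavirin-OVA, and their Dusp5 93.7, 246, 101 and 215 CPM. pDC-like cells had 4 higher under vehicle, against 7.26%, and 1 higher and 5 lower under ribavirin, against 6.82% and 4.46%, among the latter Nfkbia at 202, 358, 249 and 100.3 CPM. In the same order, neutrophil markers summed to 614, 1157, 492 and 710 CPM within monocyte-like cells and 598, 755, 535 and 149 CPM within pDC-like cells. Their part in the Tnf and Nfkbia values was not tested. B cell-like cells (106 to 250 per library) had 12 higher and 1 lower under vehicle, against 20.6% and 4.59%, and 3 higher and 2 lower under ribavirin, against 13.3% and 4.89%. Plasma cell-like cells had 17 higher under vehicle, against 13.5%, and 2 higher and 3 lower under ribavirin, against 17.5% and 3.84%.

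Wide ratios were also found in plasma cell-like and B cell-like cells. Egr2 read 7.42 CPM in Vehicle, 57.5 in Vehicle-OVA, 9.49 in Ribavirin and 32.3 in Ribavirin-OVA there, with ratios of 7.75 (6.17 to 9.78) and 3.40 (2.67 to 4.38), and Socs3 read 34.0, 215, 60.4 and 146 CPM, with ratios of 6.31 (5.66 to 7.05) and 2.42 (2.19 to 2.68). Both genes were 2-fold higher in both pairs in plasma cell-like cells, as the only 2 of 38 members tested, against 7.85% of all genes. In B cell-like cells Ier3 read 22.2, 191, 82.3 and 37.9 CPM, a ratio of 8.59 (5.57 to 13.9) that rests on 23 UMIs in Vehicle. Neutrophil markers summed within B cell-like cells read 232, 884, 1078 and 184 CPM and within plasma cell-like cells 311, 784, 334 and 226 CPM. The plasma cell-like class itself differed between the libraries, with its own 8 markers summing to 110396, 55949, 103611 and 46638 CPM and with 5.37%, 27.6%, 5.42% and 12.3% of its cells at the limit of the class rule. The part of these shifts in the ratios was not tested.

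**Figure D5:**
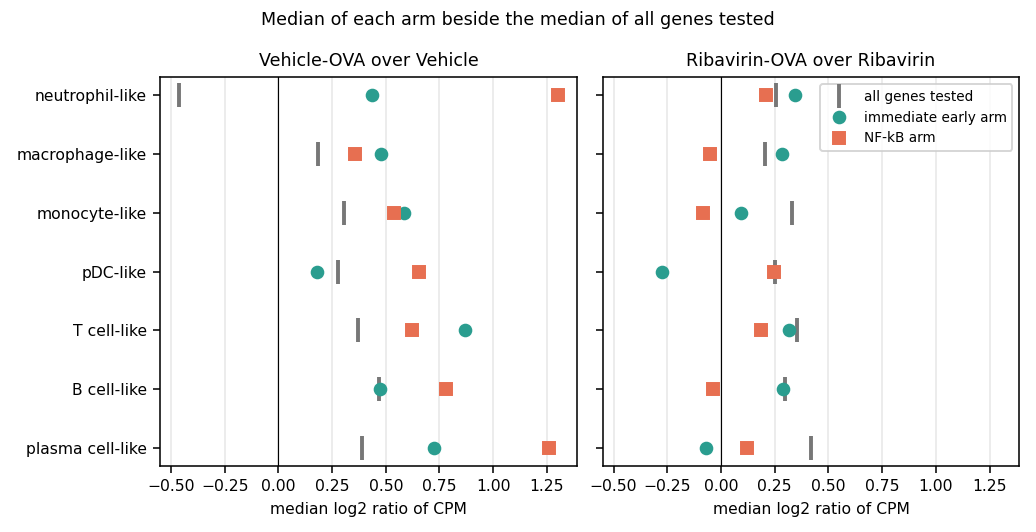
Median log2 ratio of CPM of the immediate early arm (circles) and the NF-kB arm (squares) in 7 cell classes, with the median of all genes tested as a vertical mark, for both OVA pairs. Under vehicle the NF-kB median exceeds that of all genes in all 7 classes (1.30 against -0.46 in neutrophil-like cells), and under ribavirin it lies below it in 6 and level with it (0.25) in pDC-like cells.

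Across the 7 classes the NF-kB arm ranked Vehicle-OVA first more often than did all genes. It was the highest library for 7 of 11 NF-kB genes in macrophage-like, 9 in monocyte-like, 8 in pDC-like, 9 in T cell-like, 8 in B cell-like and 9 in plasma cell-like cells, where between 28.1% and 40% of all genes tested were highest in that library. In Ribavirin-OVA over Vehicle-OVA the median log2 ratio of the NF-kB arm was -0.22 in macrophage-like, -0.50 in monocyte-like, -0.53 in pDC-like, -0.31 in T cell-like, -0.59 in B cell-like and -0.63 in plasma cell-like cells, with medians of all genes between -0.04 and 0.08. Immediate early genes were highest in Vehicle-OVA for 21 of 27 in T cell-like and 20 of 27 in plasma cell-like cells, but for 8 of 27 in macrophage-like cells.

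Other genes of both pathways, listed beside the members, moved in part. In neutrophil-like cells under vehicle 8 of 28 other immediate early genes were at least 2-fold higher and 2 lower, with a median log2 ratio of 0.52. They were led by Fosl1 at 7.04-fold (5.78 to 8.66) and the kinase gene Plk2 at 4.36-fold. Of all genes tested 6.29% were 2-fold higher and 22.7% 2-fold lower, with a median of -0.46. Of 34 other NF-kB pathway genes 10 were higher and 2 lower, with a median of 0.11, led by the TNF receptor gene Tnfrsf1b at 5.42-fold and the adaptor gene Traf1 at 5.10-fold, while Sharpin at 0.346-fold and Tnip2 at 0.408-fold were the lowest. Under ribavirin the counts were 2 higher and 1 lower in either list, against 7.4% and 3.41% of all genes. The highest were Rhob at 2.18-fold and the IkB kinase gene Chuk at 2.28-fold. Chuk and Tnfrsf1b were also among the highest of that list in macrophage-like cells under vehicle, at 2.21-fold and 2.51-fold, and in T cell-like cells Tnfrsf1b was 2.74-fold and the inhibitor of apoptosis gene Birc3 2.71-fold higher.

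Heat shock genes, a sign of handling or stress, were given as a reference list of 11. In neutrophil-like cells Hspa1b read 10.7 CPM in Vehicle, 275 in Vehicle-OVA, 13.8 in Ribavirin and 165 in Ribavirin-OVA, and Hspa1a 14.9, 198, 16.9 and 86.4 CPM. These near-identical genes can share reads, so the split between them is uncertain. They were higher in both OVA libraries, while Hspe1, a mitochondrial chaperonin gene, was 0.341-fold under vehicle, and the median log2 ratio of the list was -0.04. Under ribavirin 3 of the 11 were at least 2-fold higher, against 7.4% of all genes. In macrophage-like cells Hspa1b was 4.71-fold higher and Hspa1a 1.44-fold higher under vehicle, but under ribavirin they stood at 0.652-fold and 0.478-fold. In T cell-like cells the ratios of Hspa1b and Hspa1a were 6.08 and 3.61 under vehicle and 1.63 and 0.537 under ribavirin. The part of handling in the immediate early values was not tested.

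Members were compared over 28 points, 7 classes in 4 libraries, after the mean of each class was taken off, as a description, since points of a library share its depth and handling. Nfkbia ran most closely with Nfkb2 (Pearson r = 0.84), Tnfaip3 (0.72), Maff (0.72), Ier3 (0.69), Nr4a3 (0.68) and Relb (0.68). Fos ran most closely with Atf3 (0.60), Fosb (0.57) and Jun (0.55), and with Nfkbia at 0.09, and Fosb with Nfkbia at -0.25. In this measure Maff, Ier3 and Nr4a3, placed in the immediate early arm, had a higher r with Nfkbia than with Fos. They were not alone in that arm, as Gadd45b (0.60 against 0.03) and Dusp1 (0.50 against -0.38) did the same, while Fosb and Jun did not. The NF-kB genes Nfkb1 (0.33), Nfkbid (0.31) and Bcl3 (0.31) ran less closely with Nfkbia than those 3 genes. By kappaB match, the median log2 ratio in neutrophil-like cells under vehicle was 1.24 over the 10 members with one and 0.45 over the 23 without. Under ribavirin it was 0.14 and 0.43. At least 2-fold higher under vehicle were 6 genes in either set, against 6.29% of all genes. Since 6 of the 10 were NF-kB genes, this split largely repeats that of the arms and adds no separate evidence.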

How the data were processed

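Single cells of CD45+ nasal mucosa were sequenced as 1 library in each of 4 groups. The authors deposited counts of UMIs per gene and cell for every library, made with Cell Ranger 5.0.0 against mm10 according to the submitters' processing notes. Cells with at least 500 UMIs, 200 genes and under 10% mitochondrial UMIs were kept, and no doublet caller was run. The class rule leaves cells with markers of several classes in a class (the median cell held up to 4 markers of another class in plasma cell-like and 3 in macrophage-like cells of Vehicle-OVA), so doublets were not removed. Each class took 8 fixed markers, of which 2 were not found under their symbols, and 1 gene of the comparison lists was not found. Within a class and library the UMIs of each gene were added up and divided by the total (CPM). Ratios were formed as log2 of CPM + 1 for genes that reached 50 UMIs in a class when all 4 libraries were pooled. Levels carry exact Poisson and ratios exact conditional binomial 95% intervals, which cover counting error only. The ratios and their intervals were tested on simulated data, and the intervals of the levels were not. With 1 library a group there was no test.

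Members past 2-fold in the same direction in both OVA pairs in neutrophil-, macrophage- or T cell-like cells were named together with a fixed set of 13, and so were, from each other list, the 2 genes with the largest ratio in each direction. The members and all lists were chosen with earlier results of these data known. Promoter strings came from RefSeq, gene annotation from the mm10 build. Python 3.11.15, numpy 2.4.6, scipy 1.17.1, pandas 2.3.3 and matplotlib 3.10.9 were used. Of the alternatives, 14 were planned and 3 were added after seeing the data.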

Additional observations from a re-analysis of the deposited data

Results flagged for a closer look

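In 6 cases a member named by rule was higher with OVA in one pair and lower in the other. With 1 library a group, the difference between the pairs was not tested. In neutrophil-like cells Fos had a log2 ratio of -0.51 under vehicle and 0.35 under ribavirin, a difference of -0.86. There Jun gave -0.22 and 0.11, a difference of -0.33, and Egr2 gave -0.22 and 0.91, a difference of -1.13. The vehicle values of these 3 genes turned above 0 under median-of-ratios scaling, at 0.09 for Fos and 0.38 for Jun and Egr2. Nfkbia gave 0.32 and -0.50 in macrophage-like cells, a difference of 0.82, and 0.57 and -0.20 in T cell-like cells, a difference of 0.77. Fos in T cell-like cells gave 0.15 and -0.32, a difference of 0.48, and its vehicle value was -0.26 under median-of-ratios scaling.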

How the results depend on the processing

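Values below are median log2 ratios unless a count is named, IE stands for the immediate early arm, V for Vehicle-OVA over Vehicle and R for Ribavirin-OVA over Ribavirin. Over 14 planned and 3 added alternatives, 230 values kept their direction and size, 49 moved and 3 reversed, and the cause was not tested. The values as reported were, in neutrophil-like cells, IE 0.43 and NF-kB 1.30 (V) and 0.35 and 0.21 (R), in macrophage-like cells 0.48 and 0.36 (V) and 0.28 and -0.05 (R), and in T cell-like cells 0.87 and 0.62 (V) and 0.32 and 0.19 (R). Counts of members past 2-fold under the alternatives have no share of all genes beside them, as none was counted. Median-of-ratios scaling moved most of them. In neutrophil-like cells it gave IE 1.04, NF-kB 1.90 and 25 members past 2-fold in place of 14 (V), and IE 0.058, NF-kB -0.078 (reversed) and 0 members in place of 2 (R). In macrophage-like cells it gave 0.25 and 0.13 (V) and 0.033 and -0.30 (R). In T cell-like cells it gave 0.46, 0.21 and 4 members in place of 11 (V), and -0.081 and -0.21 (R), both reversed. A total without mitochondrial and ribosomal genes gave 0.34 and 1.21 (V) and IE 0.30 (R) in neutrophil-like, 0.34 and 0.22 (V) and 0.18 and -0.15 (R) in macrophage-like, and 0.67 and 0.42 (V) and 0.13 and 0.0032 (R) in T cell-like cells. Classes by summed marker UMIs gave 0.52 and 1.37 (V) and IE 0.29 (R) in neutrophil-like cells, and IE 0.42 with 3 members in place of 5 (V) and 0.17 and -0.21 (R) in macrophage-like cells. With 4 markers and a margin of 3, IE was 0.27 in neutrophil-like (R) and 0.23 in T cell-like cells (R), and NF-kB 0.25 in macrophage-like (V) and 0.51 in T cell-like cells (V). Thinning to 1000 UMIs gave 0.39 and 1.44 in neutrophil-like cells (V), NF-kB -0.12 in macrophage-like (R) and IE 0.75 in T cell-like cells (V). The mean of single-cell CPM gave 0.34 and 1.36 in neutrophil-like cells (V), where at least 2000 UMIs gave IE 0.50 (V) and 0.31 (R), no filter on cells IE 0.41 (V), and leaving out the 5% of cells with most UMIs NF-kB 1.42 (V). No filter on cells gave IE 0.26 in macrophage-like cells (R). Members past 2-fold in T cell-like cells (R) were 2, and 5 at a mitochondrial limit of 5%. Of the added alternatives, leaving out barcodes found in 2 libraries made that count 4, leaving out cells with a Csf3 UMI gave NF-kB 1.20 (V), and leaving out cells with 3 or more Ngp and Ltf UMIs IE 0.41 (R) in neutrophil-like cells. A mitochondrial limit of 20%, a pseudocount of 10 CPM and other limits on low genes moved none of these values. The ratios of 17 named genes were recomputed under the alternatives, which gave 1394 values in which each ratio recurs under many settings. Of these values, 332 belonged to ratios reported past 2-fold, and 0 of them changed sign. Among the rest, which belonged to ratios reported within 2-fold, 39 changed sign. No paired analysis was possible because each group was 1 library with no replicate number, and for the same reason none could be left out. Counts limit NK- and B cell-like cells most, with 361682 UMIs for the former in Vehicle-OVA.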
